A study of Homo sapiens with 61 samples.

Results

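The synaptic vesicle and release machinery was followed as a set of 38 presynaptic genes, chosen by name and matched to the gene identifiers of the counts tables through GENCODE 29. Both tables list 58440 genes, and all 38 were found in each. All 38 also passed the filter on low counts, which left 18235 genes tested in experiment 1 and 20759 in experiment 2. By role, the set holds 7 genes of the vesicle membrane (SYN1, SYN2, SYN3, SYP, SV2A, SV2B and SV2C) and 6 synaptotagmins, the family of vesicle calcium sensors (SYT1, SYT2, SYT4, SYT5, SYT7 and SYT11). A further 8 belong to the fusion machinery (SNAP25, STX1A, VAMP1, VAMP2, CPLX1, CPLX2, NSF and NAPB). The remaining genes are 12 of the active zone with docking and priming (RAB3A, RAB3B, RAB3C, RIMS1, RIMS2, RIMBP2, BSN, PCLO, UNC13A, UNC13B, PPFIA2 and ERC2) and 5 of vesicle retrieval (SNAP91, DNM1, AMPH, SYNJ1 and SH3GL2).

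RNA was measured in neurons derived from the human line WTC11, an established line of induced pluripotent stem cells in which doxycycline switches on the neurogenic transcription factor NGN2. Experiment 1 set wild type cells (WT) beside knockouts (KO) of DLK (gene MAP3K12), of LZK (gene MAP3K13) and of both kinases, and every one of these lines carried the NGN2 cassette. In experiment 2 all cells expressed the machinery for CRISPR interference, which represses a gene at its promoter. Lentivirus brought in a gRNA, the guide RNA, for ATF2, for JUN or of scrambled sequence (Control gRNA). On day 14 of differentiation vincristine, which destabilises microtubules, was given at 5 nM for 16 hours, or DMSO as vehicle. The vehicle groups, whose sample labels read untreated, are called untreated here. The extraction protocol gives the age as 10 to 14 days. Each of the 8 groups of experiment 1 had 4 libraries, and each of the 6 groups of experiment 2 had 5, except ATF2 gRNA with vincristine, which had 4. The labels do not give the number of clones behind a knockout or say whether the libraries of a group came from separate cultures, so p-values measure only the spread between these libraries, which may be technical. Each library is a bulk sample, in which fewer neurons of a type and less RNA per neuron cannot be told apart.

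Synaptic vesicles are tethered by synapsins, carry SV2 proteins and synaptophysin, and dock at the active zone through RAB3 and the RIM, RIM-BP, ELKS, liprin, Bassoon and Piccolo scaffolds. UNC13 proteins prime them, the pairing of VAMP with SNAP25 and syntaxin fuses them, complexin holds that step and synaptotagmin releases it on calcium entry. NSF and its adaptor NAPB then take the spent complex apart, and dynamin, amphiphysin, endophilin (SH3GL2), synaptojanin and the clathrin adaptor SNAP91 recover the membrane. DLK and LZK are kinases that signal axon and microtubule damage through JNK to transcription factors such as JUN and ATF2.

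Total counts per library ran from 8410729 to 14647819 in experiment 1 and from 38925807 to 88392414 in experiment 2. The targeted genes followed the labels. Mean MAP3K12 was 26.3 CPM (counts-per-million, scaled with TMM factors) in untreated DLK KO against 91.0 in WT, and mean MAP3K13 was 31.9 in LZK KO against 99.1. Double KO means were 19.7 for MAP3K12 and 29.6 for MAP3K13. Mean ATF2 was 0.526 with ATF2 gRNA against 129 with Control gRNA, and mean JUN was 2.87 with JUN gRNA against 88.5. JUN was also low with ATF2 gRNA, at a mean of 21.0 CPM, and its mean rose with vincristine from 140.0 to 507 CPM in WT and from 88.5 to 238 with Control gRNA. All 8 pan-neuronal markers were above 0 in every library, with summed levels between 7837 and 15880 CPM. Markers of astrocytes, oligodendrocytes and mesenchymal cells summed to at most 6.63, 5.80 and 2.18 CPM in any library. Replicate 4 of WT with vincristine stood apart, since its gene levels deviated from the group means with an SD of 0.373 (log2) against 0.0848 to 0.250 in the other libraries of experiment 1. Results that rest on WT with vincristine are given with and without it where it matters.

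Per kilobase of exon, the members spanned a wide range of levels in the untreated control lines. SYT1, the fast calcium sensor, was highest in both untreated control groups, at 103 ± 1.80 CPM per kb (SD, n = 4) in WT and 183 ± 11.9 (SD, n = 5) with Control gRNA. RAB3A, the vesicle GTPase, came next in WT at 101 ± 3.88 (SD, n = 4), which does not differ from SYT1 beyond the spread. SV2C was lowest in both, at 0.173 ± 0.0420 (SD, n = 4) and 0.181 ± 0.0875 (SD, n = 5) CPM per kb. Within families the levels lay far apart, since VAMP2 stood at 48.8 CPM per kb against 1.62 for VAMP1 in WT, and SYN1 at 22.6 against 2.43 for SYN2 and 3.69 for SYN3. The median member spanned 108 kb of genome with 6.22 kb of exon, against 36.3 kb and 5.26 kb for the 13369 protein-coding genes tested in both experiments.

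ATF2 and JUN are leucine zipper factors that bind the cyclic AMP response element (CRE, letters TGACGTCA) and the AP-1 element (TGAGTCA). The promoters of the members were therefore searched for these letters on both strands, and for RE1, the element of the neuronal repressor REST, whose letters are the first capitals of the SYN1 stretch with the GC after CACC left free. RefSeq promoters on GRCh38.p14, each with 250 bases before and 50 after the start site, were at hand for 33 of the 38 members in 52 windows, and not for RIMS2, SYT7, CPLX1, SYN3 and SNAP25. The CRE letters stood in 2 of the 52 member windows, of SH3GL2 and SYN1, against 1.85% of all 35116 promoters. The AP-1 letters stood in 5 of the 52 windows, of ERC2, RAB3B, RIMBP2 and (in 2 windows) RIMS1, against 4.95%. RE1 was found in 1 window, of SYN1, and 0.0142% of all promoters hold it. Stretches around 1 set of matches per gene are shown because ATF2 and JUN are the genes repressed in experiment 2, with the matched letters in capitals, each read along its gene. They are SH3GL2 (chr9:17579016-17579085, plus strand), SYN1 (chrX:47619998-47620101, minus strand, with RE1 before CRE), RAB3B (chr1:51990766-51990865, minus strand), RIMS1 (chr6:71886300-71886354, plus strand), RIMBP2 (chr12:130634007-130634106, minus strand) and ERC2 (chr3:56468560-56468659, minus strand).
SH3GL2: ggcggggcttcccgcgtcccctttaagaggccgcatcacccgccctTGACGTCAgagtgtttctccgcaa
SYN1: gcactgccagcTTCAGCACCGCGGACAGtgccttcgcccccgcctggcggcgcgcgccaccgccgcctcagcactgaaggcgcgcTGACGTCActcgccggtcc
RAB3B: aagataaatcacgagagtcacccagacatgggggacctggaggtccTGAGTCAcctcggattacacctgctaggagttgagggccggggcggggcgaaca
RIMS1: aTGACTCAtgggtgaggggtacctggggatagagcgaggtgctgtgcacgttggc
RIMBP2: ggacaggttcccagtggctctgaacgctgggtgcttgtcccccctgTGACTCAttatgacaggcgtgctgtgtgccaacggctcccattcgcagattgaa
ERC2: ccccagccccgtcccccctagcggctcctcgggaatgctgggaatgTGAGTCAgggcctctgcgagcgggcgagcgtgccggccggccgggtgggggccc

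The CRE match of SH3GL2 begins 4 bases before the start site, and that of SYN1 159 bases before it. In RIMBP2 and the RIMS1 stretch shown the AP-1 letters lie on the opposite strand and so read TGACTCA. RIMS1 has another promoter window with an AP-1 match (chr6:72212643-72212942, plus strand), which reads TGAGTCA along the gene, begins 20 bases after the start site and is not shown. A match is a description of letters and not a binding site.

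With vincristine, members changed in both directions in WT and with Control gRNA, and in both of these control lines every role held members that rose and members that fell. In WT, 18 of the 38 members changed, 8 upward and 10 downward. Of all tested genes 30.2% changed, 15.7% upward and 14.5% downward, and of genes at a mean of 10 CPM or more 38.5% did. Without replicate 4 of WT with vincristine 21 members changed, 11 upward and 10 downward. A fit of the 2 WT groups alone, which does not borrow the spread of the other lines, called 6 members, SYN3, SYT11 and AMPH upward and SV2B, SYT1 and SNAP91 downward. The other 12 WT calls (SV2C, SYT5, SH3GL2, SNAP25, RIMS1, CPLX1, UNC13A, UNC13B, RIMBP2, RIMS2, NAPB and SYNJ1) were lost in that fit, at adjusted p of 0.0603 to 0.269, and those of NAPB, RIMS1, RIMS2, UNC13B and SYNJ1 also with no filter on low counts. With Control gRNA, 30 changed, 10 upward and 20 downward. Of all tested genes 35.3% changed there, 17.1% upward and 18.1% downward, and of genes at 10 CPM or more, a level reached by 37 members in each experiment, 56.8% did. A gene is said to have changed when its p-value from edgeR's quasi-likelihood test, adjusted by Benjamini and Hochberg over all tested genes of that comparison, was under 0.05. The genes that rose furthest were SYN3, SV2C, SYT11, SH3GL2 and SYT5, and those that fell furthest were UNC13A, CPLX1, SYT1, SV2B, RAB3A and RIMBP2. The median member log2 fold change was -0.066 in WT and -0.12 with Control gRNA, against 0 and 0.031 over all genes. Summed pan-neuronal markers were also lower after vincristine in these lines, at 8994 to 10890 CPM against 11590 to 12290 in WT and 7837 to 8283 against 10640 to 11190 with Control gRNA. Their part in the member changes was not tested.

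**Figure D1:**
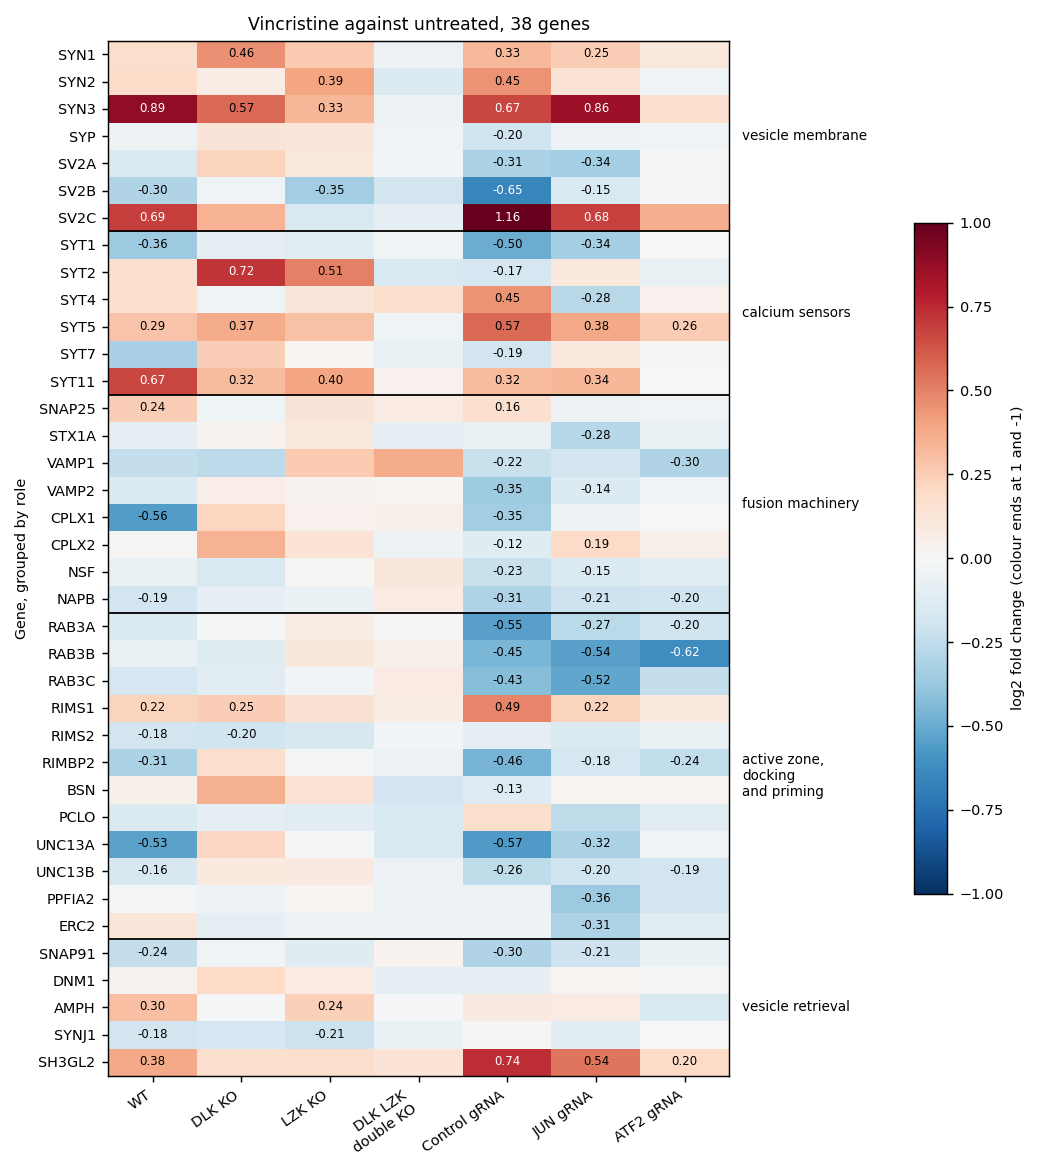
Log2 fold change with vincristine of the 38 members (lines, ordered by role) in the 7 cell lines (columns); red is higher and blue lower with vincristine, the colour scale ends at -1 and 1, and values are printed where the adjusted p is under 0.05. WT and Control gRNA carry 18 and 30 printed values, DLK LZK double KO none and ATF2 gRNA 8.

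Among the vesicle membrane genes, SYN3, a minor synapsin, had 19.3, 19.8, 19.4 and 21.8 CPM in untreated WT and 38.9, 33.3, 43.6 and 32.7 with vincristine. Its groups did not overlap in WT or with Control gRNA. Its log2 fold change was 0.89 ± 0.10 SE, adjusted p = 2.04e-09, in WT and 0.67 ± 0.11 SE, adjusted p = 3.95e-06, with Control gRNA. With Control gRNA it went from 13.7, 14.2, 12.9, 13.4 and 13.8 to 21.2, 21.1, 21.0, 20.4 and 24.6 CPM. SV2B and SV2C, paralogous vesicle glycoproteins, moved in opposite directions. SV2B fell from 278, 273, 266, 261 and 273 CPM to 174, 172, 175, 165 and 174 with Control gRNA (-0.65 ± 0.032 SE, adjusted p = 1.12e-21). In WT it fell from 188, 178, 183 and 189 to 156, 140.0, 158 and 145 CPM (-0.30 ± 0.064 SE, adjusted p = 0.000369). SV2C, the member with the lowest level, rose from 3.18, 0.661, 2.46, 3.01 and 1.58 CPM to 5.19, 5.30, 5.46, 4.66 and 3.82 with Control gRNA (1.16 ± 0.20 SE, adjusted p = 7.18e-06), with no overlap. In WT its groups overlapped, with 1.62, 1.68, 2.46 and 2.58 CPM untreated and 3.44, 2.16, 4.08 and 3.99 with vincristine. The call there (0.69 ± 0.22 SE, adjusted p = 0.0131) was lost without any one of untreated replicates 1 and 2 and vincristine replicate 3, at 0.59 to 0.61 and adjusted p of 0.0508 to 0.0675. SV2A, the SV2 form with the highest level per kb, and SYP, synaptophysin, fell with Control gRNA (-0.31 and -0.20) and did not pass the test in WT (-0.15 and -0.049). The synapsins SYN1 and SYN2 rose with Control gRNA (0.33 and 0.45) and stood at 0.18 and 0.19 in WT without passing it. In WT SYN1 had 83.0, 90.4, 85.8 and 86.6 CPM untreated and 118, 106, 107 and 60.1 with vincristine. The 60.1 is replicate 4, and the other treated libraries lay above every untreated one.

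The synaptotagmins split in the same way. SYT1 fell from 679.8, 655, 663 and 676 CPM to 498, 534, 521 and 527 in WT (-0.36 ± 0.047 SE, adjusted p = 1.3e-07). With Control gRNA it fell from 1154, 1104, 1307, 1168 and 1221 to 876, 818, 847, 832 and 846 CPM (-0.50 ± 0.042 SE, adjusted p = 1.02e-12). Every treated library was below every untreated one in both of these lines. SYT11, a synaptotagmin that does not bind calcium, rose from 222, 227, 233 and 242 CPM to 358, 369, 363 and 376 in WT (0.67 ± 0.051 SE, adjusted p = 5.37e-13). It also rose from 445, 489, 449.8, 469 and 486 to 592, 596, 587, 576 and 570.1 CPM with Control gRNA (0.32 ± 0.033 SE, adjusted p = 3.56e-11), again without overlap. SYT5, another synaptotagmin, rose from 22.7, 19.1, 22.7, 23.4 and 24.1 CPM to 30.1, 32.5, 32.9, 33.6 and 37.5 with Control gRNA (0.57 ± 0.073 SE, adjusted p = 1.02e-08). In WT its groups overlapped, at 77.4, 73.1, 73.0 and 82.3 CPM untreated and 111, 104, 98.9 and 59.0 with vincristine. The call in WT (0.29 ± 0.10 SE, adjusted p = 0.0296) was lost when any one of 5 libraries (untreated 2 and 3, vincristine 1, 2 and 3) was left out, at 0.20 to 0.27 and adjusted p of 0.075 to 0.154. Without vincristine replicate 4 the value was 0.45. SYT4, which is carried on dense-core vesicles, rose with Control gRNA (0.45 ± 0.042 SE, adjusted p = 2.68e-12) and stood at 0.16 (adjusted p = 0.296) in WT. SYT7, the slow sensor, and SYT2, the fast sensor of hindbrain and motor terminals, fell slightly with Control gRNA, by 0.19 and 0.17 on the log2 scale.

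In the fusion machinery CPLX1, a complexin, had 48.9, 54.5, 50.4 and 45.5 CPM in untreated WT and 41.8, 42.1, 33.9 and 16.9 with vincristine (-0.56 ± 0.15 SE, adjusted p = 0.00559). The lowest of these is replicate 4, and without it the log2 fold change was -0.35 and still called, while the fit of the 2 WT groups alone gave -0.57 without a call (adjusted p = 0.093). With Control gRNA CPLX1 fell from 48.6, 48.2, 48.0, 44.4 and 38.3 to 34.7, 33.5, 35.4, 41.4 and 33.4 CPM (-0.35 ± 0.068 SE, adjusted p = 3.96e-05), with overlapping groups. CPLX2, the more abundant complexin, stood at 0.013 in WT (adjusted p = 0.948) and fell by 0.12 with Control gRNA. In WT it had 515, 562, 543 and 567 CPM untreated and 645, 608, 612 and 342 with vincristine. The 342 is replicate 4, and the other treated libraries lay above every untreated one. SNAP25, the plasma membrane SNARE, rose in both lines (0.24 at adjusted p = 0.00551 in WT and 0.16 at adjusted p = 0.000183 with Control gRNA). Its partner VAMP2 fell with Control gRNA (-0.35 at adjusted p = 3e-14) and stood at -0.14 in WT (adjusted p = 0.0607). STX1A, syntaxin, passed the test in neither (-0.10 at adjusted p = 0.395 and -0.065 at adjusted p = 0.406). Of its exonic bases 17.9% are shared with the antisense genes BUD23 and MIR4284, whose reads cannot be told apart where the strand setting of the counting is not known. NSF, the ATPase of complex disassembly, fell by 0.23 with Control gRNA, but it has a near-identical copy in the genome and its counts are uncertain.

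At the active zone UNC13A, the main priming factor, fell from 328, 346, 322 and 352 CPM to 271, 261, 267 and 133 in WT (-0.53 ± 0.14 SE, adjusted p = 0.00463). Replicate 4 is again the lowest, its omission gives -0.34, and the fit of the 2 WT groups alone gave -0.54 without a call (adjusted p = 0.0603). With Control gRNA it fell from 443, 426, 416, 411 and 422 to 277, 288, 293, 292 and 279 CPM (-0.57 ± 0.036 SE, adjusted p = 8e-18), and the groups were well apart. RIMBP2, which links RIM to calcium channels, had 132, 129, 132 and 147 CPM in untreated WT and 123, 114, 123 and 74.5 with vincristine (-0.31 ± 0.095 SE, adjusted p = 0.0104, and -0.17 without replicate 4). With Control gRNA it went from 133, 129, 125, 130.5 and 134 to 94.2, 93.5, 92.1, 96.2 and 97.0 CPM (-0.46 ± 0.037 SE, adjusted p = 2.05e-14). All 3 RAB3 paralogs fell with Control gRNA. RAB3A went from 182, 206, 194, 199 and 189.6 CPM to 127, 139.6, 139.7, 134 and 123 (-0.55 ± 0.041 SE, adjusted p = 2.77e-15), and RAB3B and RAB3C fell by 0.45 and 0.43. In WT the 3 paralogs stood at -0.15, -0.066 and -0.17 without passing the test. RIMS1, the RIM scaffold, rose in both lines (0.22 at adjusted p = 0.00915 in WT and 0.49 at adjusted p = 4.06e-09 with Control gRNA). Its paralog RIMS2 fell by 0.18 in WT, a call lost without any one of untreated replicate 1 and vincristine replicates 1 and 2, at -0.17 to -0.14. BSN, Bassoon, fell by 0.13 with Control gRNA, a call lost without any one of 5 libraries (untreated 1, 2 and 5, vincristine 1 and 5), at -0.12 to -0.097, and with no filter (-0.11, adjusted p = 0.0785). PCLO, Piccolo, passed the test in neither line.

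Of the retrieval genes, SH3GL2 rose from 20.6, 22.3, 20.0, 21.6 and 21.8 CPM to 36.1, 35.2, 34.5, 35.1 and 36.2 with Control gRNA (0.74 ± 0.059 SE, adjusted p = 2.63e-14). The treated libraries lay close together and far above the untreated ones. In WT it had 19.1, 14.0, 16.9 and 16.2 CPM untreated and 19.9, 20.6, 19.9 and 25.8 with vincristine (0.38 ± 0.12 SE, adjusted p = 0.0134). This call was lost without untreated replicate 2 (0.31, adjusted p = 0.064) and without vincristine replicate 4 (0.28, adjusted p = 0.0612). AMPH, amphiphysin, rose in WT (0.30 at adjusted p = 0.000635) and SNAP91 fell in both lines (-0.24 and -0.30).

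**Figure D2:**
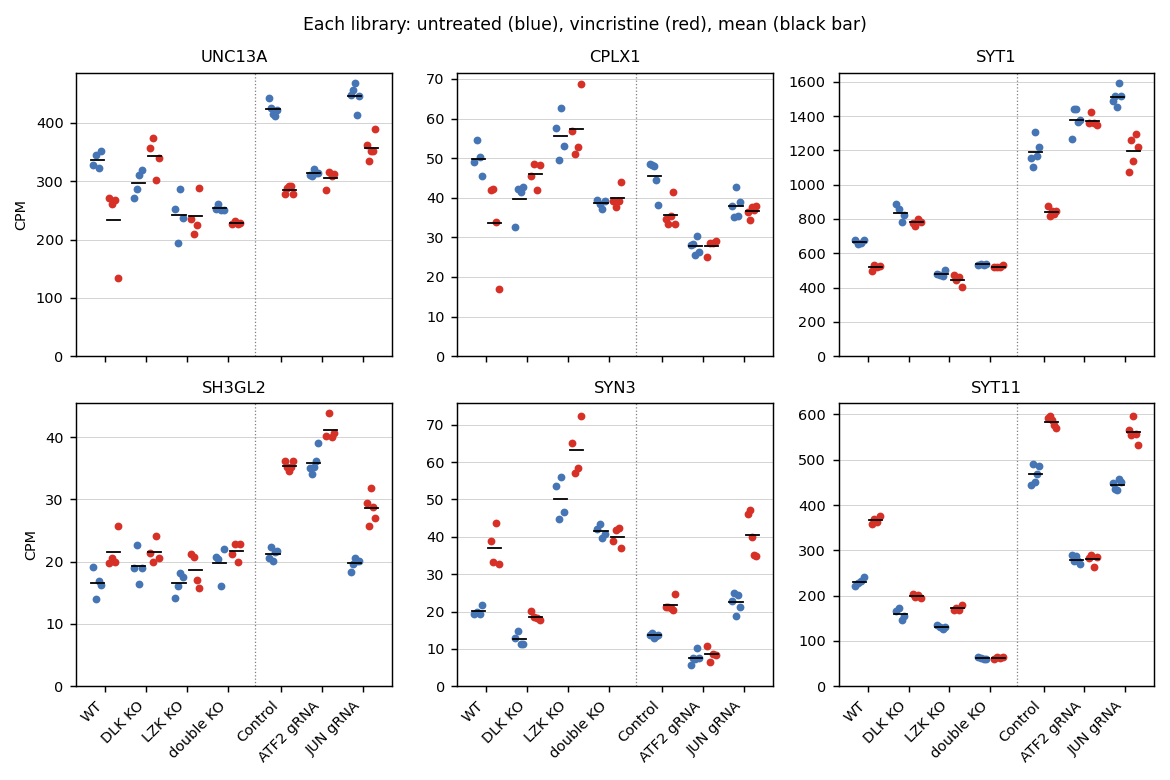
Level (CPM, axis from 0) of UNC13A, CPLX1, SYT1, SH3GL2, SYN3 and SYT11 in every library of the 7 lines; blue points are untreated and red points vincristine libraries, and black bars are group means. In WT and with Control gRNA the red points lie below the blue ones for UNC13A and SYT1 and above them for SH3GL2, SYN3 and SYT11, and in the double KO both colours lie close together.

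The 2 control lines share no library, so their responses can be set side by side. Across the 38 members, Pearson's r between the WT and the Control gRNA log2 fold changes was 0.834 and Spearman's rho 0.814. Over the 16930 genes tested in both they were 0.651 and 0.623, and genes are not independent replicates. Of the members, 15 changed in both, 7 upward and 8 downward, each in the same direction in both lines. These were SYN3, SV2C, SYT5, SYT11, SNAP25, RIMS1 and SH3GL2 upward. Downward they were SV2B, SYT1, CPLX1, NAPB, RIMBP2, UNC13A, UNC13B and SNAP91. Besides the WT calls of SV2C, SYT5 and SH3GL2, those of NAPB and UNC13B were lost when a library was left out. For NAPB any one of untreated 2 and 3 and vincristine 1, 2 and 3 did so, at -0.18 to -0.15. For UNC13B any one of untreated 2, 3 and 4 and vincristine 1, 2 and 4 did so, at -0.17 to -0.11. Of the members with CRE or AP-1 letters in the promoter window, SH3GL2, SYN1 and RIMS1 rose and RIMBP2 and RAB3B fell with Control gRNA, and ERC2 did not pass the test (-0.051 at adjusted p = 0.662). In WT SYN1 (0.18), RAB3B (-0.066) and ERC2 (0.12) did not pass the test. With Control gRNA 30 of the 38 members changed, beside 35.3% of all genes and 56.8% of those at 10 CPM or more. Of all genes tested in both, 21.9% changed in both, 98.7% of them in the same direction. Differentiation, construct and sequencing depth differ between the experiments, so levels were not compared across them.

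**Figure D3:**
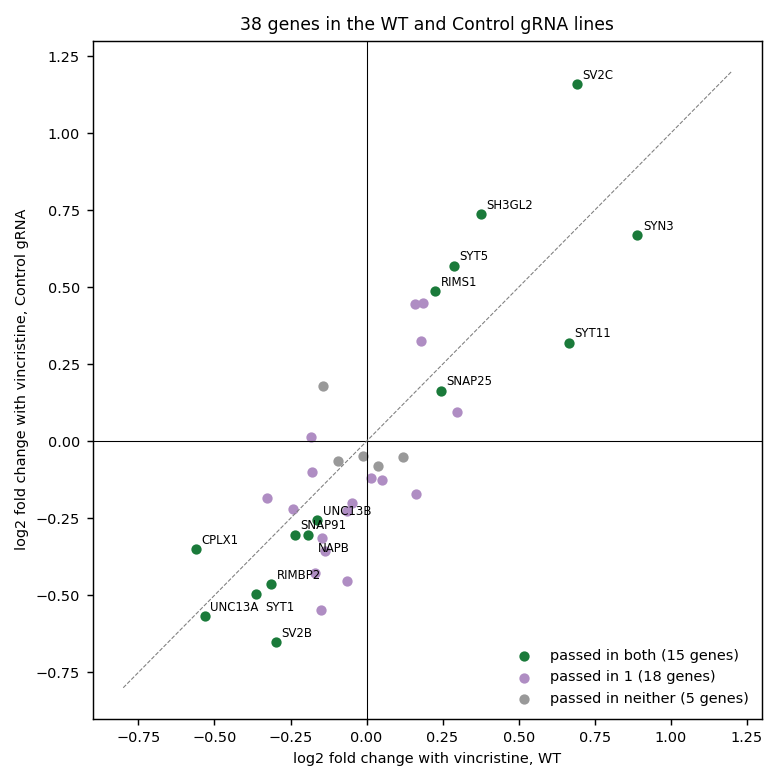
Log2 fold change with vincristine in WT (horizontal) against Control gRNA (vertical) for the 38 members; point colour marks members that changed in both lines (15), in 1 of them (18) or in neither (5), and the dashed line marks equal values. Points spread along the dashed line, with SYN3, SV2C, SYT11 and SH3GL2 at upper right and UNC13A, CPLX1 and SYT1 at lower left.

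In the model over all groups, fewer members changed with vincristine in the kinase knockouts than the 18 of WT, and none did in the double knockout. This order depends on the model. Fits of each line's 2 groups alone called 6 members for WT, 14 for DLK KO, 2 for LZK KO and 4 for double KO. DLK KO then exceeded WT in members called. The share of all genes called in those fits is not given here, so these counts stand without a background. In DLK KO 7 members changed with vincristine, 6 upward and 1 downward, where 6.53% of all genes changed, 4.24% upward and 2.28% downward, or 9.55% of genes at 10 CPM or more. In LZK KO 7 changed, 5 upward and 2 downward, where 3.88% of all genes did, 2.27% upward and 1.61% downward, or 5.44% of genes at 10 CPM or more. In the double KO 0 members changed, and 12 of all tested genes did (0.0658%, with 0.00548% upward and 0.0603% downward). At an unadjusted p under 0.05, which makes no correction for the number of genes, 3 members of the double KO passed. The share of all genes at that cut is not given here, so this count is not read as a change. DESeq2 called 0 members. The difference in effect against WT was past the threshold for 12 members in DLK KO, 8 higher and 4 lower. Of all genes 19.4% passed there, 9.95% higher and 9.41% lower, and of genes at 10 CPM or more 26.9%. In LZK KO 4 members passed, 1 higher and 3 lower, where 12.4% of all genes did, 5.88% higher and 6.53% lower, or 17.6% at 10 CPM or more. For the double KO 8 passed, 4 higher and 4 lower, where 19.4% of all genes did, 9.21% higher and 10.2% lower, or 26.1% at 10 CPM or more. Without WT vincristine replicate 4 these were 8, 4 and 15. The 7 calls in DLK KO became 3 or 4 without any one of untreated or vincristine replicates 1 and 2. The 7 in LZK KO became 3 or 4 without any one of untreated replicates 1, 2 and 4 and vincristine replicate 4.

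UNC13A, CPLX1 and SYT1, which fell in WT, did not pass the test in DLK KO. UNC13A had 271, 286, 311 and 319.5 CPM in untreated DLK KO and 357, 374, 302 and 340.3 with vincristine. CPLX1 had 32.7, 42.1, 41.5 and 42.6 CPM untreated and 45.5, 48.4, 41.9 and 48.3 with vincristine. Treated and untreated libraries of DLK KO overlapped for both genes. Both differed in effect from WT, by 0.74 ± 0.20 SE, adjusted p = 0.00928, for UNC13A and 0.77 ± 0.22 SE, adjusted p = 0.0118, for CPLX1. Over the alternative fits, omission of WT vincristine replicate 4 among them, the difference ran from 0.55 to 0.81 for UNC13A. For CPLX1 it ran from 0.56 to 0.89. The CPLX1 call was lost in a fit of the compared groups alone (adjusted p = 0.0571). SYT1 differed in effect from WT in all 3 knockouts, by 0.26 at adjusted p = 0.00479 in DLK KO, 0.25 at adjusted p = 0.00887 in LZK KO and 0.32 at adjusted p = 0.000465 in the double KO. The DLK KO call was lost with no filter (adjusted p = 0.0993), and the LZK KO call with no filter (0.133) and with the compared groups alone (0.0679). In the double KO it had 532, 538, 533 and 539.9 CPM untreated and 518, 519, 519.7 and 530.5 with vincristine, with no overlap but a log2 fold change of -0.038 ± 0.047 SE, adjusted p = 0.888. CPLX1 in the double KO differed from WT by 0.61 ± 0.22 SE, adjusted p = 0.0462, a call lost when any one of 12 of the 16 libraries (all but WT untreated 4 and WT vincristine 1, 2 and 4) was left out, at 0.56 to 0.64. Its value was 0.40 without WT vincristine replicate 4, and the call was also lost with no filter and with the compared groups alone (adjusted p = 0.0711 and 0.0932).

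SYT11, SYN3, SV2C and AMPH, which rose in WT, rose less or not at all in some of the knockouts. SYT11 went from 167, 173, 146 and 154 to 203, 198, 202 and 194 CPM in DLK KO and from 135, 132, 126 and 130.3 to 167, 174, 168 and 179 in LZK KO. In the double KO it had 63.5, 62.9, 59.9 and 59.4 CPM untreated and 60.5, 65.2, 62.5 and 65.1 with vincristine. The difference in effect from WT was -0.35 ± 0.072 SE, adjusted p = 0.000613, in DLK KO, -0.27 ± 0.073 SE, adjusted p = 0.0116, in LZK KO, and -0.62 ± 0.074 SE, adjusted p = 6.33e-08, in the double KO. The LZK KO call of SYT11 was lost with no filter (adjusted p = 0.241) and with the compared groups alone (0.0952). SYN3 likewise went from 53.5, 44.8, 55.9 and 46.6 to 65.0, 57.0, 58.4 and 72.3 CPM in LZK KO, a difference in effect from WT of -0.56 ± 0.13 SE, adjusted p = 0.00316. In the double KO it had 42.1, 43.3, 39.7 and 40.7 CPM untreated and 38.8, 41.9, 42.4 and 37.1 with vincristine, a difference of -0.94 ± 0.13 SE, adjusted p = 1.28e-06. SV2C differed from WT by -0.84 at adjusted p = 0.0363 in LZK KO and -0.79 at adjusted p = 0.0182 in the double KO. The LZK KO call was lost when any one of 8 libraries (WT untreated 1 and 2, WT vincristine 1, 3 and 4, LZK KO untreated 2 and 3 and vincristine 1) was left out, at -0.84 to -0.68, and with the compared groups alone (adjusted p = 0.131). The double KO call was lost without any one of WT untreated 1 and 2 and WT vincristine 3, at -0.70 to -0.68. AMPH, with 62.0, 63.0, 53.2 and 52.9 CPM untreated and 57.8, 57.5, 54.5 and 58.3 with vincristine in DLK KO, differed from WT by -0.32 ± 0.095 SE, adjusted p = 0.0165. Leaving out untreated replicate 2 of DLK KO ended that call, at -0.28, and so did no filter (adjusted p = 0.114).

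SYT2 rose with vincristine in both single knockouts and passed the test in neither WT nor the double KO. It went from 80.5, 103, 82.1 and 90.0 to 147, 163, 131 and 142 CPM in DLK KO (0.72 ± 0.10 SE, adjusted p = 7.41e-06). In LZK KO it went from 69.1, 67.0, 83.3 and 70.5 to 95.2, 116, 94.2 and 107 CPM (0.51 ± 0.10 SE, adjusted p = 0.0017). In WT it had 135, 132, 131 and 149.9 and 164, 148, 181 and 118 CPM. The 118 is replicate 4, which stood apart. The other treated WT libraries spanned 148 to 181 CPM, a range that still reached the highest untreated library. In the double KO SYT2 had 63.9, 67.6, 54.3 and 61.0 and 50.6, 54.0, 57.4 and 59.5 CPM, and the groups overlapped in both lines. The effect in the double KO differed from that in DLK KO by -0.87 ± 0.14 SE, adjusted p = 0.000393. SYN3, at -0.61 ± 0.14 SE, adjusted p = 0.0151, was the other of the 2 members past the threshold in that comparison, both lower, where 1.14% of all genes passed, 0.126% higher and 1.01% lower, or 1.9% at 10 CPM or more. The SYN3 call was lost without any one of DLK KO untreated replicate 3 and vincristine replicates 1 and 2, at -0.60 to -0.56. Of the exonic bases of SYT2, 27.2% are shared with 3 opposite-strand genes, of which PPP1R12B is one.

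In experiment 2, fewer members changed with vincristine under ATF2 gRNA than under JUN gRNA. With ATF2 gRNA 8 members changed with vincristine, 2 upward and 6 downward, where 6.1% of all genes changed, 1.88% upward and 4.22% downward, or 10.9% of genes at 10 CPM or more. The 8 became 5 without any one of untreated replicates 2 and 3 and vincristine replicate 4. With JUN gRNA 25 changed, 8 upward and 17 downward, where 15.9% of all genes did, 7.58% upward and 8.31% downward, or 28.1% at 10 CPM or more. The difference in effect from Control gRNA was past the threshold for 23 members with ATF2 gRNA, 12 higher and 11 lower, where 20.6% of all genes passed, 10.2% higher and 10.4% lower, or 34.3% at 10 CPM or more. With JUN gRNA it was past it for 15 members, 10 higher and 5 lower, where 15.8% of all genes passed, 8.71% higher and 7.06% lower, or 28.3% at 10 CPM or more. JUN was also low with ATF2 gRNA, so these libraries are low in both factors and the share of either cannot be told apart.

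UNC13A, SV2B and SYT1, which fell far with Control gRNA, did not pass the test with ATF2 gRNA. UNC13A had 311, 308, 321, 314 and 314 CPM untreated and 285, 315, 309 and 312 with vincristine there, a difference in effect from Control gRNA of 0.53 ± 0.052 SE, adjusted p = 3.55e-11. SV2B had 152, 147, 159, 146 and 145 and 147, 149, 148 and 150.0 CPM (difference 0.64 ± 0.047 SE, adjusted p = 4.24e-15). Its untreated levels there were already below the 165 to 175 CPM of the treated Control gRNA libraries. SYT1 had 1266, 1444, 1440.0, 1363 and 1379 and 1358, 1426, 1361 and 1347 CPM (difference 0.49 ± 0.060 SE, adjusted p = 4.36e-08). For each of these genes the treated and untreated libraries of ATF2 gRNA overlapped. SH3GL2, at 35.0, 34.1, 35.2, 36.2 and 39.0 CPM untreated and 40.2, 43.9, 40.1 and 40.7 with vincristine, rose less than with Control gRNA (difference -0.54 ± 0.086 SE, adjusted p = 3.7e-06). Its untreated libraries there spanned 34.1 to 39.0 CPM, beside 34.5 to 36.2 in the treated libraries of Control gRNA. Its own call (0.20 at adjusted p = 0.0419) was lost when any one of 7 of the 9 libraries (untreated 1 to 4, vincristine 3 to 5) was left out, at 0.17 to 0.22, with no filter and with the compared groups alone (adjusted p = 0.106 and 0.0756). SV2C, at 6.92, 8.25, 7.14, 8.21 and 7.39 and 10.6, 10.1, 9.00 and 9.23 CPM, differed in effect by -0.80 ± 0.28 SE, adjusted p = 0.0383. This call was lost when any one of 9 of the 19 libraries (Control gRNA untreated 2 and 5 and vincristine 1 to 3, ATF2 gRNA untreated 2 and 4 and vincristine 4 and 5) was left out, at -0.78 to -0.59, and with the compared groups alone (adjusted p = 0.0704). RAB3B fell with all 3 guides. It went from 369, 309.5, 349, 317 and 335 to 254, 242, 254, 238 and 237 CPM with Control gRNA. It also went from 165, 180.3, 184, 182 and 173 to 105, 115, 126 and 114 CPM with ATF2 gRNA and from 384, 404, 361, 365 and 372 to 250.1, 251, 245, 276 and 272 with JUN gRNA. Its log2 fold changes were -0.45, -0.62 and -0.54. The differences from Control gRNA did not pass the threshold (-0.17 ± 0.066 SE, adjusted p = 0.0664, and -0.089 ± 0.063 SE, adjusted p = 0.423).

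With JUN gRNA some members responded differently from Control gRNA and others did not pass the test of a difference. SYT4 moved in opposite directions. It rose from 344, 344, 393, 356 and 368 to 518, 488, 494, 472 and 489 CPM with Control gRNA. With JUN gRNA it fell from 361, 357, 350.5, 402 and 358 to 283, 317, 295, 315 and 299 CPM, a difference of -0.72 ± 0.059 SE, adjusted p = 2.72e-13. With ATF2 gRNA it had 329, 394, 380.0, 361 and 382 and 379, 392, 377 and 374 CPM, in overlapping groups. PPFIA2, a liprin scaffold of the active zone, had 53.9, 54.0, 55.1, 53.5 and 51.1 and 55.7, 48.9, 51.4, 53.3 and 49.5 CPM with Control gRNA. It fell from 55.6, 58.9, 49.0, 62.2 and 61.0 to 41.4, 49.0, 45.5, 44.4 and 42.3 with JUN gRNA (difference -0.32 ± 0.087 SE, adjusted p = 0.00786), and 20.5% of its exonic bases are shared with opposite-strand genes such as ACSS3. SV2B fell with JUN gRNA from 252, 257, 239, 251 and 252 to 222, 222, 226, 229.9 and 224 CPM, less than with Control gRNA (difference 0.50 ± 0.045 SE, adjusted p = 6.51e-12). CPLX2 rose with JUN gRNA from 961, 981, 992, 902 and 1007 to 1140.0, 1066, 1147, 1122 and 1041 CPM and differed from Control gRNA by 0.31 ± 0.046 SE, adjusted p = 1.4e-06. SYT11 (0.34), SYN3 (0.86) and SV2C (0.68) also rose with JUN gRNA. Their differences from Control gRNA did not pass the threshold, at 0.015 ± 0.046 SE, adjusted p = 0.905, for SYT11, 0.19 ± 0.15 SE, adjusted p = 0.514, for SYN3 and -0.47 ± 0.28 SE, adjusted p = 0.3, for SV2C.

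Set directly against each other, the effects with ATF2 gRNA and JUN gRNA differed for 7 members, 4 higher and 3 lower with ATF2 gRNA. Of all genes 2.83% passed in that comparison, 0.91% higher and 1.92% lower, or 5.04% at 10 CPM or more. These included SYN3 (-0.70 ± 0.16 SE, adjusted p = 0.00978), which went from 22.8, 24.9, 18.9, 24.3 and 21.3 to 46.0, 47.1, 39.9, 35.2 and 34.9 CPM with JUN gRNA. With ATF2 gRNA SYN3 had 5.60, 7.62, 7.30, 10.1 and 7.67 CPM untreated and 10.8, 6.59, 8.74 and 8.27 with vincristine. They also included SYT1 (0.33 ± 0.060 SE, adjusted p = 0.000431), SV2A (0.32 ± 0.046 SE, adjusted p = 3.54e-06) and SH3GL2 (-0.34 ± 0.086 SE, adjusted p = 0.0176). The SH3GL2 call was lost without any one of ATF2 gRNA vincristine replicates 2, 4 and 5 and JUN gRNA vincristine replicate 3, at -0.31 to -0.29, with no filter (adjusted p = 0.0739) and with the compared groups alone (0.0684). The SYN3 call was lost with the compared groups alone (adjusted p = 0.0645). SV2A fell with JUN gRNA, from 608, 607, 623, 566 and 623 to 498, 455, 483, 481 and 478 CPM. It had 414, 388, 417, 402 and 410.3 and 401, 391, 415 and 404 CPM with ATF2 gRNA, in overlapping groups.

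Before any drug most members already differed from the control line in the 3 knockouts and with ATF2 gRNA, more of them lower than higher, and fewer did with JUN gRNA. These comparisons use the same untreated WT or Control gRNA libraries as the vincristine effect in those lines, so the values of both are given side by side and not set against each other. In untreated DLK KO 4 members were higher and 19 lower than WT, where 34.5% of all genes differed (16.5% higher and 17.9% lower), or 42.1% of genes at 10 CPM or more. In LZK KO 7 were higher and 17 lower, where 33.9% of all genes differed (17.1% and 16.8%), or 41.1% at 10 CPM or more. The double KO had 7 members higher and 18 lower, where 45.7% of all genes differed (23.6% and 22.1%), or 52.1% at 10 CPM or more. Against Control gRNA 7 were higher and 22 lower with ATF2 gRNA, where 39.9% of all genes differed (19.7% and 20.2%), or 59.6% at 10 CPM or more (26.4% and 33.2%). With JUN gRNA 5 were higher and 5 lower, where 11.2% did (5.78% and 5.46%), or 19.5% at 10 CPM or more. These were 4 and 2 without Control gRNA untreated replicate 1. The median member stood at -0.24, -0.13, -0.14, -0.32 and -0.039 (log2) in these lines, while the median over all genes lay between 0.0004 and 0.017. All 6 synaptotagmins differed in DLK KO, 1 higher and 5 lower, and all 7 vesicle membrane genes differed in LZK KO and in the double KO, 3 higher and 4 lower in each.

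**Figure D4:**
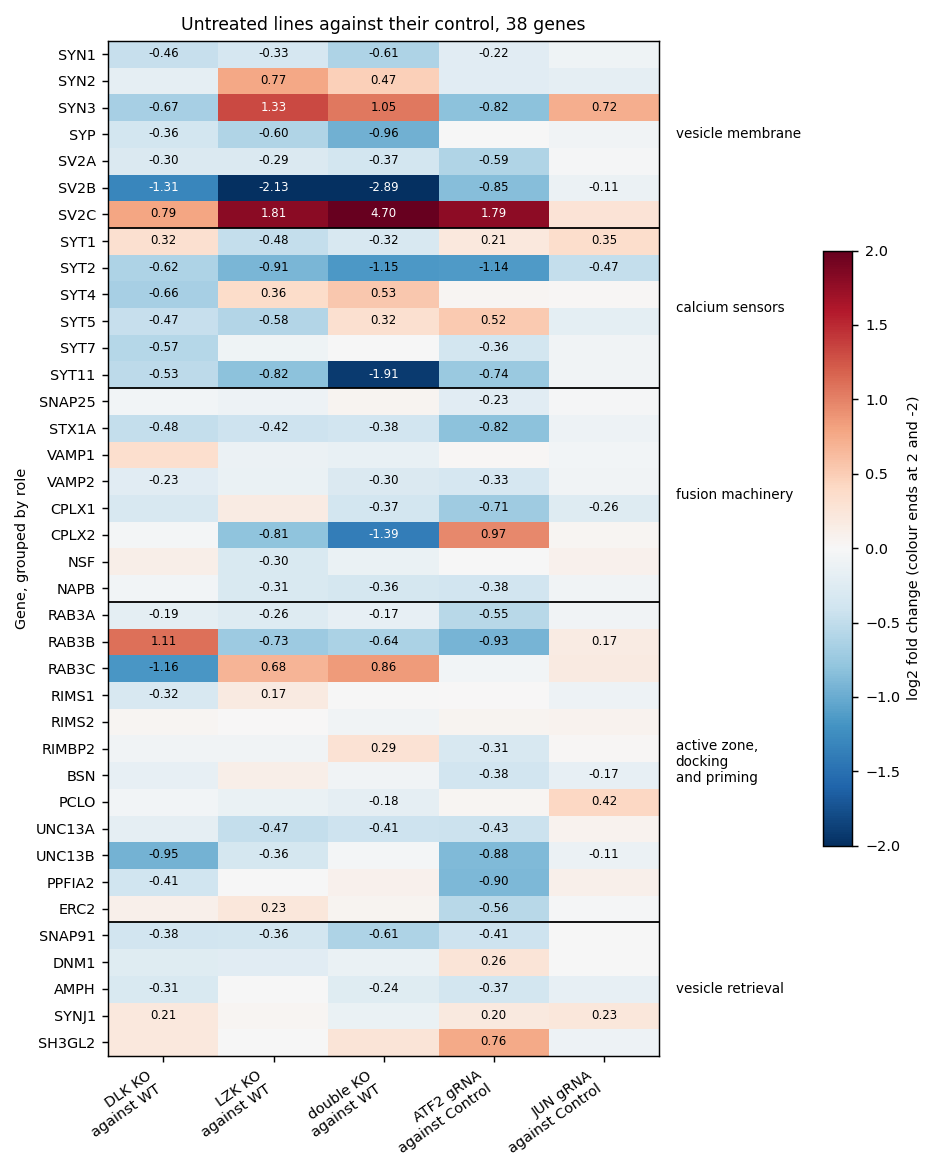
Log2 difference of untreated DLK KO, LZK KO and double KO from WT, and of ATF2 gRNA and JUN gRNA from Control gRNA, for the 38 members ordered by role; red is higher and blue lower than the control line, the colour scale ends at -2 and 2, and values are printed where the adjusted p is under 0.05. SV2B and SYT2 are lower in every column, and SV2C is higher in every column, though without a printed value for JUN gRNA.

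SV2B was lower and SV2C higher than WT in every knockout. SV2B had 188, 178, 183 and 189 CPM in untreated WT, 72.4, 73.5, 73.5 and 79.0 in DLK KO, 42.1, 39.5, 42.4 and 43.9 in LZK KO and 20.5, 28.4, 25.5 and 25.0 in the double KO. SV2C had 1.62, 1.68, 2.46 and 2.58 CPM in WT, 4.69, 4.09, 3.00 and 2.80 in DLK KO, 5.34, 7.34, 9.44 and 7.30 in LZK KO and 57.1, 58.0, 52.9 and 52.6 in the double KO. No knockout overlapped WT for either gene, and in the double KO the level per kb was 4.58 for SV2C and 1.99 for SV2B. The log2 differences from WT were -1.31, -2.13 and -2.89 for SV2B (SE 0.065 to 0.071). For SV2C they were 0.79, 1.81 and 4.70 (SE 0.16 to 0.21), and the last is a 26.1-fold difference. Their adjusted p-values were at most 0.00352. SV2A stood at -0.30, -0.29 and -0.37. With ATF2 gRNA the same pair moved the same way. SV2B was lower there, from 278, 273, 266, 261 and 273 to 152, 147, 159, 146 and 145 CPM (-0.85 ± 0.032 SE, adjusted p = 3.48e-26). SV2C was higher, from 3.18, 0.661, 2.46, 3.01 and 1.58 to 6.92, 8.25, 7.14, 8.21 and 7.39 (1.79 ± 0.20 SE, adjusted p = 5.38e-10). The 20 tested genes nearest to SV2B and to SV2C on the chromosome had median log2 differences near 0 in LZK KO and the double KO. The neighbours of SV2C had a median of -0.90 in DLK KO, with 13 of 20 lower, while SV2C was higher. Beside these values, the 3 markers of GABAergic neurons summed to 8.98 to 10.8 CPM in the double KO and 22.2 to 26.3 with ATF2 gRNA, each at a mean of 1 CPM or more there. They summed to 0.596 to 1.49 in WT and 0.489 to 1.50 with Control gRNA, where none reached it. The 2 glutamatergic markers were above 0 in every library and summed to 165 to 191 CPM in the double KO against 302 to 342 in WT. With ATF2 gRNA their sum was higher instead, at 455 to 500 CPM against 382 to 424 with Control gRNA. Of the 5 cholinergic and peripheral markers, 5 had a mean of 1 CPM or more in WT, 4 in the double KO, 5 in DLK KO and 3 in LZK KO. Their sums were 199 to 207, 103 to 112 and 31.0 to 37.8 CPM against 50.2 to 60.8 in WT. Only 1 of the 3 pluripotency markers had a mean of 1 CPM or more in the double KO, where their sum was 51.7 to 58.0 CPM against 2.11 to 2.77 in WT. The 3 dividing-cell markers, all at 1 CPM or more in LZK KO, summed to 54.5 to 59.5 CPM there against 5.31 to 7.46 in WT. The part of these markers in the member differences was not tested.

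RAB3B and RAB3C moved in opposite directions in every knockout. RAB3B had 168, 178, 195 and 212 CPM in untreated WT, 435, 457, 339 and 395 in DLK KO, 119, 120.3, 112 and 102 in LZK KO and 120.2, 123, 122 and 117 in the double KO. RAB3C had 282, 269, 291 and 296 CPM in WT, 142, 125, 123 and 119 in DLK KO, 436, 556, 360.1 and 470.4 in LZK KO and 505, 485, 545 and 530.0 in the double KO. DLK KO thus had more RAB3B (1.11 ± 0.075 SE, adjusted p = 8.97e-15) and less RAB3C (-1.16 ± 0.090 SE, adjusted p = 6.23e-13). LZK KO and the double KO had the reverse, with RAB3B at -0.73 and -0.64 and RAB3C at 0.68 and 0.86. The 20 genes nearest to RAB3C had a median of -0.75 in DLK KO, with 11 lower, and of 0.41 in LZK KO, with 10 higher, so that the median of its neighbours had its sign in both. RAB3A, the most abundant form per kb in WT, stood at -0.19, -0.26 and -0.17. Its calls in DLK KO and the double KO were each lost without any one of WT 1, 2 and 3, of DLK KO 3 and 4, and of double KO 2 and 3, at -0.20 to -0.15 and -0.18 to -0.12, and both with no filter (adjusted p = 0.124 and 0.163). With ATF2 gRNA RAB3B fell from 369, 309.5, 349, 317 and 335 to 165, 180.3, 184, 182 and 173 CPM (-0.93 ± 0.045 SE, adjusted p = 6.87e-22).

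**Figure D5:**
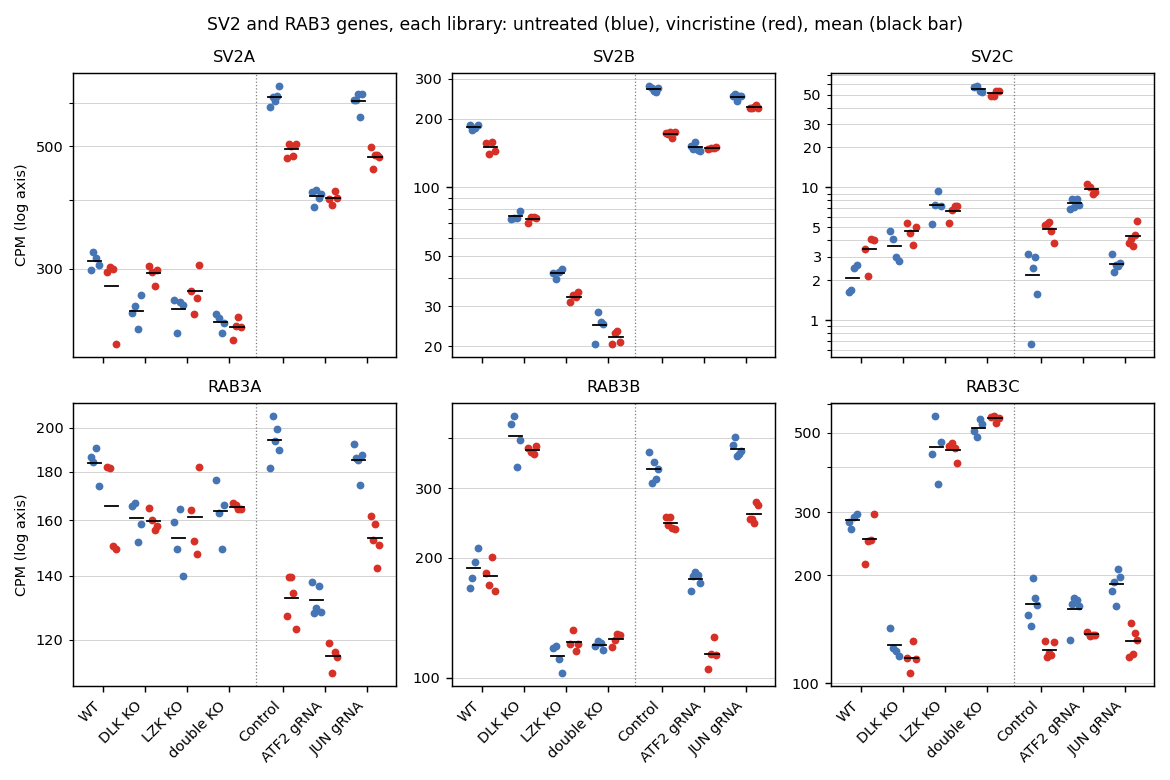
Level (CPM, logarithmic axis) of SV2A, SV2B, SV2C, RAB3A, RAB3B and RAB3C in every library of the 7 lines; blue points are untreated and red points vincristine libraries, and black bars are group means. SV2B falls and SV2C rises from WT to the double KO, and RAB3B and RAB3C change in opposite directions in DLK KO.

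Other members with large untreated differences belong to the calcium sensors, the synapsins and the complexins. SYT11 was at 63.5, 62.9, 59.9 and 59.4 CPM in the double KO against 222, 227, 233 and 242 in WT (-1.91 ± 0.054 SE, adjusted p = 4.11e-26), and at -0.53 and -0.82 (log2) in the single knockouts. SYT2 was lower in all 5 lines, at -0.62, -0.91 and -1.15 in the knockouts, -1.14 with ATF2 gRNA and -0.47 with JUN gRNA, each with an adjusted p of at most 4.66e-06. In LZK KO it had 69.1, 67.0, 83.3 and 70.5 CPM against 135, 132, 131 and 149.9 in WT. With ATF2 gRNA it had 147, 142, 151, 136 and 139 CPM against 298, 321, 309.8, 322 and 325 with Control gRNA. SYN3 was higher in LZK KO (1.33 ± 0.095 SE, adjusted p = 4.79e-14), in the double KO (1.05 ± 0.095 SE, adjusted p = 1.06e-11) and with JUN gRNA (0.72 ± 0.11 SE, adjusted p = 6.25e-06). It was lower in DLK KO (-0.67) and with ATF2 gRNA (-0.82). Its untreated levels were 53.5, 44.8, 55.9 and 46.6 CPM in LZK KO, 12.9, 14.7, 11.4 and 11.4 in DLK KO and 22.8, 24.9, 18.9, 24.3 and 21.3 with JUN gRNA. CPLX2 was lower in LZK KO (-0.81) and in the double KO, at 207, 217, 199 and 212 CPM against 515, 562, 543 and 567 in WT (-1.39 ± 0.12 SE, adjusted p = 2.58e-11). It was higher with ATF2 gRNA, at 1972, 1763, 1795, 1865 and 1870.0 against 924, 982, 939, 930.3 and 961 with Control gRNA (0.97 ± 0.033 SE, adjusted p = 4.13e-28). CPLX1 was lower with JUN gRNA, at 37.9, 35.0, 42.8, 35.3 and 38.9 CPM against 48.6, 48.2, 48.0, 44.4 and 38.3 (-0.26 ± 0.068 SE, adjusted p = 0.00705), in overlapping groups. PCLO was higher with JUN gRNA, at 118, 159, 116, 151 and 136 CPM against 107, 93.7, 126, 87.3 and 93.8 with Control gRNA (0.42 ± 0.13 SE, adjusted p = 0.0349). This PCLO call was lost when any one of 7 of the 10 libraries (Control gRNA 1, 2, 4 and 5, JUN gRNA 2, 4 and 5) was left out, at 0.36 to 0.44 and adjusted p of 0.0503 to 0.107, and with no filter (adjusted p = 0.0508). Of the 12 active zone, docking and priming genes, 8 were lower with ATF2 gRNA and 0 higher. Of all genes 20.2% were lower and 19.7% higher there, and of those at 10 CPM or more 33.2% and 26.4%. Among the 8 were PPFIA2 (-0.90), UNC13B (-0.88) and ERC2 (-0.56), and STX1A of the fusion machinery stood at -0.82.

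A wider list of 103 further genes of the synaptic vesicle cycle, 101 of them tested, gave a background for the set. With vincristine in WT 15 rose and 18 fell, 32.7% of the list, where 30.2% of all genes changed and 38.5% of those at 10 CPM or more, so that share is near the background. In DLK KO 11 rose and 0 fell (10.9% of the list against 6.53% of all genes and 9.55% of those at 10 CPM or more). In LZK KO 7 rose and 0 fell (6.93% against 3.88% and 5.44%). In the double KO 0 changed, where 0.0658% of all genes did. With Control gRNA 18 rose and 49 fell (66.3% against 35.3% of all genes and 56.8% at 10 CPM or more). With ATF2 gRNA 4 rose and 13 fell (16.8% against 6.1% and 10.9%), and with JUN gRNA 10 rose and 31 fell (40.6% against 15.9% and 28.1%). Of the 15 genes of the vesicle proton pump, which acidifies vesicles so that they fill with transmitter, 0 rose and 11 fell with Control gRNA, where 18.1% of all genes fell and 33.9% of those at 10 CPM or more. In WT 1 of them rose and 3 fell (26.7% of the pump genes, against 30.2% of all genes). Among the genes of the list that changed most with Control gRNA, SYT10, a synaptotagmin, fell (-1.68 ± 0.19 SE, adjusted p = 2.28e-09). The furthest upward were SYT17 (1.93 ± 0.071 SE, adjusted p = 1.7e-24) and SYNJ2 (1.92 ± 0.098 SE, adjusted p = 3.53e-21), a synaptojanin paralog. In WT the extremes were SLC32A1 (-2.33, adjusted p = 0.0357), the GABA transporter of vesicles, at a mean of 0.304 CPM untreated and 0.0494 with vincristine, and SYT10 (-1.83, adjusted p = 2.62e-07) downward, with overlapping groups for SLC32A1. Upward in WT they were SYNJ2 (0.80, adjusted p = 1.05e-05) and STON1 (0.70, adjusted p = 0.0368), an endocytic adaptor.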

How the data were processed

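RNA was prepared with the TruSeq stranded poly(A) kit and read as paired ends, per the labels' protocols. The deposited values are raw counts per gene and library, 1 table per experiment, and per the submitters' processing notes cutadapt 3.4, STAR and featureCounts of Subread 2.0.1 were used with GRCh38. The strand setting of the counting and the treatment of duplicate reads are not given in the sources used here. Of the gene identifiers, 58320 were matched to a symbol. No count column was left unused (0 in each table), and no pair of replicates agreed within sampling noise, since the lowest chi-square per degree of freedom was 1.58 in 48 pairs of experiment 1 and 5.2 in 56 pairs of experiment 2.

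Low genes were removed per experiment with filterByExpr by group, and TMM factors and a quasi-likelihood model over all groups of the experiment were fitted with edgeR 4.0.16 in R 4.3.3. Adjusted p-values follow Benjamini and Hochberg over all tested genes at a threshold of 0.05, and differences in effect are interaction contrasts of that model. The SE of a log2 fold change was taken from the value and its F statistic. Tables and figures were made with Python 3.11.15, pandas 2.3.3 and matplotlib 3.10.9. The procedure was tested on simulated data.

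The members, the wider list and the markers were chosen with earlier results of these data known. Genes given in full are the 4 highest and 4 lowest called members with vincristine in WT and with Control gRNA, and the 2 highest and 2 lowest in each untreated comparison and each difference in effect, and other members are given by range or fold. Names outside this rule, such as the neighbouring paralogs, were chosen after their values were seen. Alternatives were RLE size factors, no filter, a mean of at least 1 CPM, a replicate block, DESeq2 1.42.0, omission of each library in turn, and fits of the compared groups alone. Exonic bases shared with opposite-strand genes, besides those given with SYT2, PPFIA2 and STX1A, reach 9.5% for VAMP1 and 9.1% for RAB3A, and those shared with same-strand genes reach 13.2% for VAMP2 and 7.8% for SYN1. One result of the wider list is not reported here.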

Additional observations from a re-analysis of the deposited data

Results flagged for a closer look

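A library stood apart from its group in 6 of the 61 member levels tested by Dixon's criterion, which flags about 1 group in 20 by chance. In WT with vincristine these were the lowest UNC13A level, 133 CPM, and the highest SH3GL2 level, 25.8 CPM, both in replicate 4. The others were the highest RIMBP2 level in untreated WT (147 CPM), the highest SV2B level in untreated DLK KO (79.0 CPM), the highest SYN3 level with Control gRNA and vincristine (24.6 CPM) and the lowest SYT5 level with untreated Control gRNA (19.1 CPM).

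The vincristine effect differed between lines for these members by the interaction test of edgeR, with an adjusted p under 0.05. Against WT, the log2 effect in DLK KO differed by -0.35 for SYT11, -0.32 for AMPH, 0.77 for CPLX1 and 0.74 for UNC13A. In LZK KO it differed by -0.84 for SV2C, -0.56 for SYN3 and 0.25 for SYT1, and in the double KO by -0.94 for SYN3, -0.79 for SV2C, 0.61 for CPLX1 and 0.32 for SYT1. The double KO differed from DLK KO by -0.87 for SYT2 and -0.61 for SYN3. Against Control gRNA, ATF2 gRNA differed by -0.80 for SV2C, -0.54 for SH3GL2, 0.64 for SV2B and 0.53 for UNC13A, and JUN gRNA by -0.72 for SYT4, -0.32 for PPFIA2, 0.50 for SV2B and 0.31 for CPLX2. ATF2 gRNA differed from JUN gRNA by -0.70 for SYN3, -0.34 for SH3GL2, 0.33 for SYT1 and 0.32 for SV2A. Each is the member or pair of members at either end of the called values in that comparison.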

How the results depend on the processing

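Over 19 comparisons, 277 member calls were made, of which 206 were kept in every alternative computed, 71 were lost in some and 0 reversed. Counts of members called moved by more than 1.5 times as follows, and the cause was not tested. The shares of all genes called under these alternatives are not given here. In fits of only the groups compared, the counts were 6 in place of 18 for vincristine in WT, 14 in place of 7 in DLK KO, 2 in place of 7 in LZK KO, 4 in place of 0 in the double KO, 1 in place of 4 for the difference of LZK KO from WT and 15 in place of 2 for that of the double KO from DLK KO. With no filter, the differences from WT were called for 6 members in place of 12 in DLK KO, 2 in place of 4 in LZK KO and 4 in place of 8 in the double KO, and DESeq2 called 7 in LZK KO. Leaving out 1 library gave 3 to 6 calls for vincristine in DLK KO, 3 to 7 in LZK KO and 5 to 8 with ATF2 gRNA, 5 to 15 for the difference of the double KO from WT, 1 to 3 for that from DLK KO, and 6 to 10 for untreated JUN gRNA. The 15 calls came without WT vincristine replicate 4. The 5 came without untreated WT replicate 1 or 2. The 1 came without DLK KO untreated replicate 3 or vincristine replicate 1 or 2.

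Taken over all pairs of groups, the replicate numbers of the labels did not pair the samples. The deviations of same-numbered libraries correlated at -0.72 to 0.45 over 112 pairs in experiment 1 (26 above 0.1). In experiment 2 they correlated at -0.481 to 0.41 over 70 pairs (14 above 0.1). Of the libraries, 5 of 32 and 3 of 29 correlated best with their own number. Between untreated and vincristine libraries of the same line, the range was -0.501 to 0.374 in experiment 1. Between those of the same guide in experiment 2 it was 0.0282 to 0.279 with Control gRNA and 0.0104 to 0.339 with JUN gRNA. With ATF2 gRNA it was -0.0243 to 0.187. The replicate block is shared by all lines, so pairing within a line was not tested. With the replicate number as a block, 17 members were called for vincristine in WT in place of 18, 6 in DLK KO and 5 in LZK KO in place of 7, and 6 with ATF2 gRNA in place of 8.

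Libraries held 8410729 to 14647819 counts in experiment 1 and 38925807 to 88392414 in experiment 2. Counts of calls were not compared between the experiments, and the part of depth in them was not tested.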

Other observations

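Genes of the vesicle proton pump, 15 in the wider list, also differed between the untreated lines, and each count is given beside the share over all genes. In DLK KO 1 was higher and 1 lower than in WT, 13.3% of the pump genes against 34.5% of all genes and 42.1% of those at 10 CPM or more. In LZK KO 1 was higher and 6 lower (46.7% against 33.9% and 41.1%), and in the double KO 0 and 8 (53.3% against 45.7% and 52.1%). Against Control gRNA 1 was higher and 8 lower with ATF2 gRNA (60.0% against 39.9% and 59.6%), and 0 and 2 with JUN gRNA (13.3% against 11.2% and 19.5%). The difference in vincristine effect from Control gRNA was past edgeR's threshold upward for 10 of them with ATF2 gRNA, where 10.2% of all genes and 19.6% at 10 CPM or more were, and for 7 with JUN gRNA, where 8.71% and 17.2% were, and downward for 0 in both. Over the 101 tested genes of the wider list, 14 were higher and 34 lower in untreated DLK KO than in WT (47.5% in all). In LZK KO 15 and 44 were (58.4%) and in the double KO 13 and 48 (60.4%). Of all genes 34.5%, 33.9% and 45.7% differed in these lines, and of those at 10 CPM or more 42.1%, 41.1% and 52.1%. Against Control gRNA 16 were higher and 49 lower with ATF2 gRNA (64.4%), and 11 and 14 with JUN gRNA (24.8%). There 39.9% and 11.2% of all genes differed, and 59.6% and 19.5% of those at 10 CPM or more.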
